A study of Mus musculus with 4 samples.

Results

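Genes of the bile duct lineage and of the Notch pathway that directs it were described in fetal livers from dams fed a control diet (CD) or a high-fat diet (HFD). The members, chosen by name, were Krt19, Krt7, Sox9, Sox4, Spp1, Epcam, Jag1, Notch2 and Hes1, and every non-control probe whose transcript belongs to any of them was taken. This gave 10 probes for 9 genes, of 56605 probes and 22911 named genes on the array. Sox9 had 2 probes and the others 1 each.

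Cholangiocytes, the cells that line the bile ducts, arise from hepatoblasts, the common progenitors of liver epithelium, where these lie beside the portal vein. Portal mesenchyme presents Jag1, a ligand, to Notch2, a receptor on neighbouring hepatoblasts. The receptor is cleaved, its intracellular part joins the DNA-binding protein RBPJ in the nucleus, and targets such as Hes1 and Sox9 are switched on. Cells that follow this path take on keratins 7 and 19, Epcam and osteopontin (Spp1), and in the fetal liver they first form a sleeve around the portal vein, the ductal plate.

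Female C57BL/6J mice were fed a CD with 4.3% or an HFD with 60% of energy as fat during gestation. Protein gave 19.2% of energy in the CD and 20% in the HFD, and by the study's methods the HFD held less carbohydrate. Total RNA from fetal livers was hybridised to 4 single-colour Agilent arrays, 2 for each diet. The fetuses were taken at 14.5 days post coitum and carried no engineered allele that the sources name, so the groups differed by the diet of the dam. Each array is labelled as a separate replicate, the sources used here do not give the number of fetuses or dams behind it, and p-values measure the spread between these arrays. With 2 arrays against 2, an exact permutation test of a single gene cannot give a p below 0.333, so tests come from limma, which shares the estimate of the spread across probes.

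Levels are on a log2 scale, as the spot intensity relative to the 75th percentile of the same array, so a level of 0 stands for a probe as bright as that percentile. They rank arrays for a given probe and not genes against each other, because probes differ in how they bind. On the 4 arrays, 65.4% to 70.0% of spots were well above background and none was saturated. The difference between 2 arrays over tested probes had an SD of 0.58 between the CD arrays and 0.34 between the HFD arrays. The replicate 1 arrays went against their sex label: all 4 arrays are labelled female, yet Eif2s3y, Kdm5d, Ddx3y and Uty, genes of the Y chromosome, were well above background on replicate 1 of each diet alone, and Xist, made from the inactive X chromosome, on replicate 2 of each diet alone. The level of Eif2s3y was 1.45 and 1.84 on the replicate 1 arrays and -6.74 and -6.32 on the replicate 2 arrays, so a contrast of arrays with the same number stays within that split. All 19 tested hepatoblast and hepatocyte markers were well above background on every array, with albumin (Alb) at 8.14 and 9.06 in CD and 8.53 and 8.54 in HFD.

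On every array the 9 genes were well above background, and all 10 probes passed the filters on dim and variable probes. None of the 10 probes changed with the maternal diet by the rule used here, an unadjusted p under 0.05 with a change of at least 2-fold. The rule called 318 of 41332 tested probes, or 0.769%, and at an adjusted p under 0.05 limma called 0. None of the 10 probes had an unadjusted p under 0.05, which 3.35% of all probes had, their adjusted p was 1.00 each (limma), and the median log2 fold change of the 9 genes was -0.02 beside 0.04 for the 18188 tested genes. None of the 9 genes had both HFD arrays above both CD arrays, as 23.1% of genes did, or below both, as 10.1% did. In 7 of the 9 the HFD arrays lay between the CD arrays, an order found in 39.8% of genes. RNA of whole livers was measured, so fewer cells of a type and less RNA per cell cannot be told apart.

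**Figure D1:**
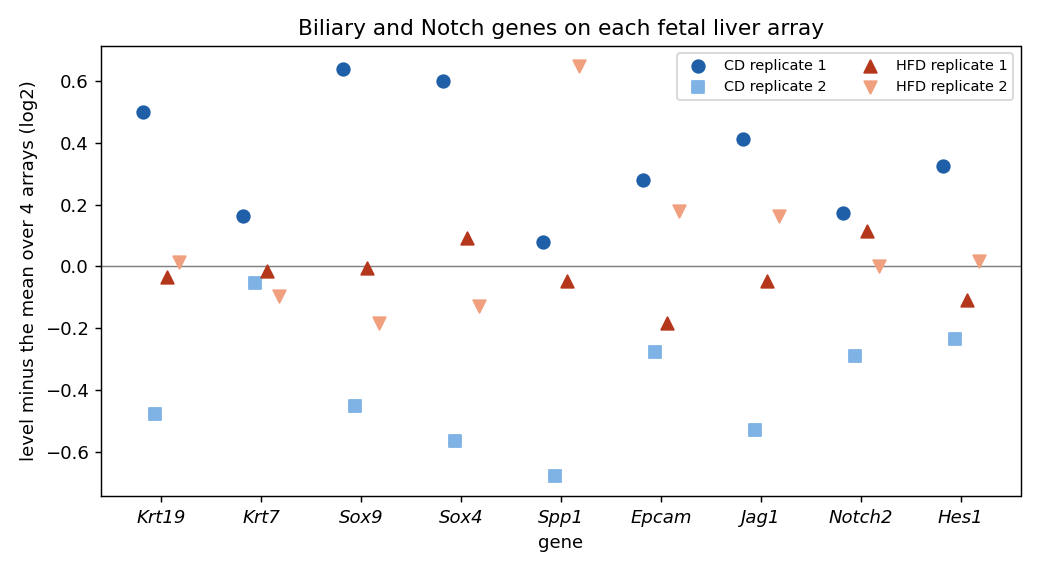
Level of each of the 9 genes on each array (log2 intensity relative to the array's 75th percentile), with the gene's mean over the 4 arrays subtracted so that genes share an axis; each point is 1 array. CD replicate 1 lies above CD replicate 2 for every gene, and the HFD arrays lie between them for all genes except Krt7 and Spp1.

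Krt19, the keratin by which bile ducts are usually stained, had levels of 2.15 and 1.18 in CD and 1.62 and 1.67 in HFD. CD replicate 1 was highest, CD replicate 2 lowest, and the HFD arrays lay close together between them. The means were 1.67 ± 0.69 (SD, n = 2) in CD and 1.64 ± 0.03 (SD, n = 2) in HFD. Between diets the log2 fold change was -0.02 ± 0.36 (SE) with a limma interval of -0.98 to 0.94, so a change of 2-fold in either direction lies just outside the 95% interval. The difference between the 2 CD arrays, 0.98 or 1.97-fold, was larger than that between diets (unadjusted p = 0.955 and adjusted p = 1.00, limma).

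Krt7, its partner keratin in mature ducts, varied least between the CD arrays. Its levels were -0.13 and -0.35 in CD and -0.31 and -0.39 in HFD, and the groups overlapped, with HFD replicate 2 the lowest array. Its log2 fold change was -0.11 ± 0.18 (SE), with an interval of -0.58 to 0.36 (limma, unadjusted p = 0.559). For Krt7 a change of 2-fold either way therefore lies well outside the interval. Krt8 and Krt18, the keratins that hepatoblasts and cholangiocytes share, had their higher CD level on replicate 2, the reverse of Krt19 and Krt7. Krt18 read 4.90 and 5.16 in CD and 5.11 and 5.10 in HFD, and Krt8 read 4.28 and 4.67 in CD and 4.44 and 4.42 in HFD. Their log2 fold changes were 0.07 for Krt18 and -0.05 for Krt8.

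Sox9 and Sox4 are transcription factors that act together in bile duct formation. The brighter Sox9 probe had levels of -0.28 and -1.37 in CD and -0.93 and -1.10 in HFD, and the HFD arrays again lay between the CD arrays. For this probe the log2 fold change was -0.19 ± 0.40 (SE), with an interval of -1.25 to 0.87 (limma, unadjusted p = 0.659). The dimmer Sox9 probe read -3.76 and -3.88 in CD and -3.94 and -3.87 in HFD, a difference of 0.12 between the CD arrays where the brighter probe had 1.09. The probes thus disagreed on how far the CD arrays lay apart, while neither passed the test for diet, with a log2 fold change of -0.08 ± 0.16 (SE) for the dimmer probe (limma, unadjusted p = 0.649).

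Sox4 had the widest spread between the CD arrays of the 9 genes. Its levels were 1.98 and 0.82 in CD and 1.47 and 1.25 in HFD, so CD replicate 1 was 2.25-fold above CD replicate 2 and both HFD arrays fell between. The log2 fold change was -0.04 ± 0.42 (SE), and its interval, -1.16 to 1.09, includes a change of 2-fold in either direction (limma, unadjusted p = 0.937).

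Spp1 encodes osteopontin, a secreted matrix protein of bile duct cells that macrophages and other cells also make, and it showed the largest diet difference of the 9 genes. Its levels were 1.73 and 0.98 in CD and 1.61 and 2.30 in HFD. HFD replicate 2 was the highest array and CD replicate 2 the lowest, while HFD replicate 1 lay below CD replicate 1, so the groups overlapped. The log2 fold change was 0.60 ± 0.38 (SE), or 1.52-fold, with an interval of -0.40 to 1.60 (limma, unadjusted p = 0.177 and adjusted p = 1.00). Its absolute value exceeded that of 95.3% of tested genes. The summed level of the 8 macrophage markers, as intensities divided by the 75th percentile, was 55.6 and 72.7 in CD and 73.0 and 71.3 in HFD, and its order across arrays was not that of Spp1. The part of macrophages in the Spp1 level was not tested.

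Epcam encodes a cell adhesion molecule of hepatoblasts and duct cells. Its levels were -0.14 and -0.69 in CD and -0.60 and -0.24 in HFD. The diet means were nearly equal, with a log2 fold change of -0.0042 ± 0.27 (SE) and an interval of -0.72 to 0.71 (limma, unadjusted p = 0.988). In contrast to Krt19, the HFD arrays were also apart, with replicate 2 the higher.

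Of the Notch genes proper, Jag1, the ligand, had levels of -0.06 and -1.003 in CD and -0.52 and -0.31 in HFD. CD replicate 1 was 1.92-fold above CD replicate 2, and both HFD arrays lay between. Jag1 had a log2 fold change of 0.12 ± 0.36 (SE), with an interval of -0.83 to 1.06 (limma, unadjusted p = 0.757). Notch2, the receptor, read 2.01 and 1.54 in CD and 1.95 and 1.83 in HFD, again with the HFD arrays inside the CD range. It had a log2 fold change of 0.12 ± 0.22 (SE) and an interval of -0.48 to 0.71 (limma, unadjusted p = 0.629), which does not reach 2-fold. Hes1, a repressor induced by Notch signalling, had levels of -0.89 and -1.44 in CD and -1.32 and -1.19 in HFD. Its log2 fold change was -0.09 ± 0.25 (SE), with an interval of -0.74 to 0.57 (limma, unadjusted p = 0.735). As for Krt19, the ligand, the receptor and the target had CD replicate 1 highest, CD replicate 2 lowest and no diet difference beyond the spread, while the HFD arrays were in the opposite order for Notch2.

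**Figure D2:**
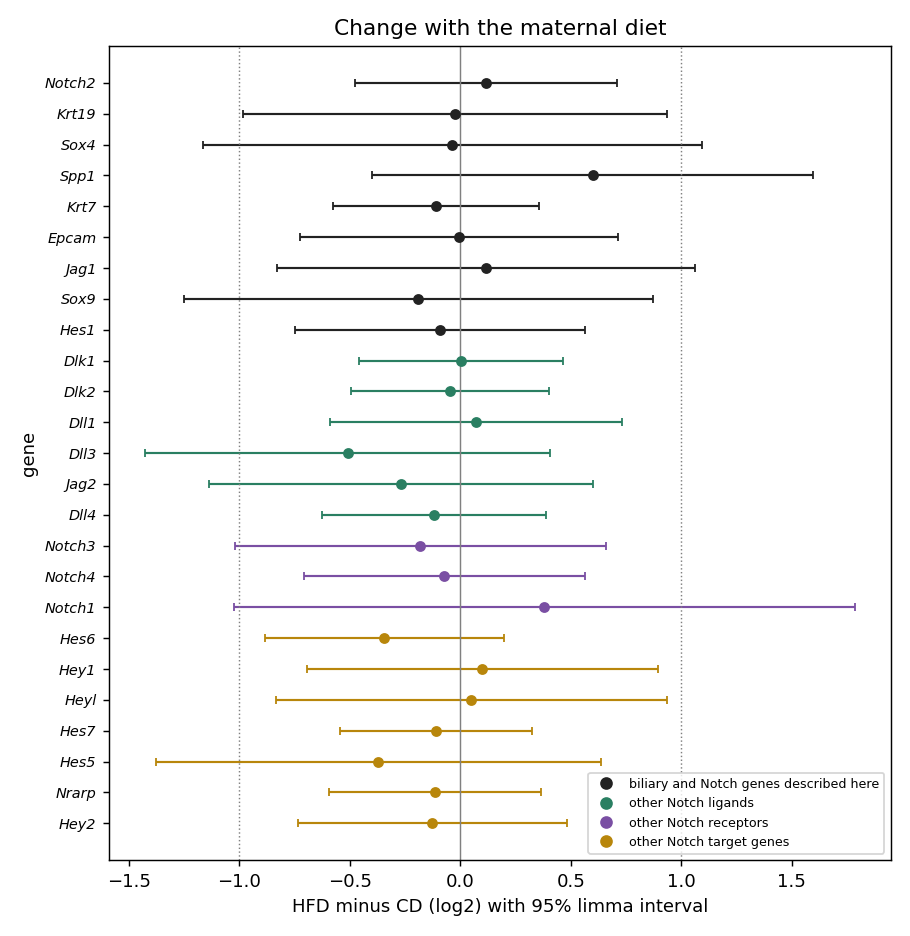
Log2 fold change (HFD minus CD, points) with the 95% limma interval (bars) for the 9 genes in black and for the other Notch ligands, receptors and target genes in colour; dotted lines mark a 2-fold change. Every interval crosses 0, and that of Spp1 reaches furthest to the right among the 9 genes.

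The 250 bases before the transcription start of these genes were read from RefSeq (assembly GRCm38.p6), which held a window for 6 of the 9 genes, 7 windows in all, and none for Krt19, Sox9 or Hes1. Next, 3 motifs were searched on both strands: the RBPJ core TGGGAA, through which Notch acts, the N-box CACNAG, which Hes proteins can bind, and the Sox core ACAANG. Sox4, Jag1 and Notch2 are shown, as a factor of the lineage, the ligand and the receptor whose HFD arrays, like those of Krt19, lay between the CD arrays; capitals mark the motif matches. The windows are chr13:28953700-28953949 on the minus strand for Sox4, chr2:137116521-137116770 on the minus strand for Jag1 and chr3:98013288-98013537 on the plus strand for Notch2, each printed in the direction of transcription.
Sox4: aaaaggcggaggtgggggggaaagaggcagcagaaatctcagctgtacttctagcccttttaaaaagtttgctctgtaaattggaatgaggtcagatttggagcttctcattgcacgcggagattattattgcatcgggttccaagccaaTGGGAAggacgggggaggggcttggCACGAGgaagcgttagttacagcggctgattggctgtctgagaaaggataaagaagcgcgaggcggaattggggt
Jag1: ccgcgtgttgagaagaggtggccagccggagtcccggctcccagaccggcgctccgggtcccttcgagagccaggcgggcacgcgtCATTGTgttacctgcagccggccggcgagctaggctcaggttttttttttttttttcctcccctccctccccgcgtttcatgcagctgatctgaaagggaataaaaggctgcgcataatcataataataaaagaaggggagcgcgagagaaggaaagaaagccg
Notch2: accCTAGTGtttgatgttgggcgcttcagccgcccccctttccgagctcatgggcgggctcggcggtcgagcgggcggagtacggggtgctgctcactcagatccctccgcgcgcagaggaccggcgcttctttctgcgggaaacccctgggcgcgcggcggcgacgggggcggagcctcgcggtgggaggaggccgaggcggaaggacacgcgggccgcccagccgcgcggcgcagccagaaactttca
Sox4 held the only RBPJ core of the 7 windows, TGGGAA starting at base -100 from the start, and an N-box match, CACGAG, at -75. Notch2 held an N-box match on the opposite strand at -247, and Jag1 a Sox core match on the opposite strand at -164. Both Spp1 windows held 1 Sox core match each, and the windows of Krt7 and Epcam held none of the motifs. Over the 32851 windows of this length in the table, 21.6% held the RBPJ core, 36.7% the N-box and 36.3% the Sox core, beside 1 of 7 windows here for the RBPJ core.

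The wider Notch pathway was read from a list of 49 other genes with a probe, all of them tested. None was called and none had an unadjusted p under 0.05 (limma, smallest 0.126, and adjusted p = 1.00), beside 0.764% of all genes called and 2.84% under that p. The median log2 fold change was -0.03, with 20 genes higher and 29 lower in HFD. Both HFD arrays lay above both CD arrays for 9 of the 49 genes and below both for 10. Over all tested genes these shares were 23.1% and 10.1%. Among the receptors, Notch1 read -0.71 and -2.15 in CD and -1.29 and -0.81 in HFD, Notch3, the receptor of mural cells, 2.73 and 1.91 in CD and 2.16 and 2.12 in HFD, and Notch4, the endothelial receptor, 1.27 and 0.79 in CD and 0.84 and 1.07 in HFD. All 4 receptors, Notch2 included, had the HFD arrays between the CD arrays with CD replicate 1 on top. The log2 fold changes were 0.38 for Notch1, -0.18 for Notch3 and -0.07 for Notch4. Without CD replicate 1, which leaves CD replicate 2 as the lone CD array, Notch1 had a log2 fold change of 1.103, so its value depended on which CD arrays were used.

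The other ligands did not pass the test either. Log2 fold changes were -0.27 for Jag2, 0.07 for Dll1 and -0.12 for Dll4. Dll3, a divergent ligand, had the largest absolute change of the 49 genes, -0.51 ± 0.35 (SE; limma, unadjusted p = 0.207). Its levels were -2.02 and -2.94 in CD and -2.95 and -3.04 in HFD. Both HFD arrays were below both CD arrays, but HFD replicate 1, at -2.947, was nearly level with CD replicate 2, at -2.945. Dlk1, an atypical ligand and a hepatoblast marker, read 7.79 and 8.01 in CD and 7.91 and 7.91 in HFD. The 3 brightest genes of receptor processing were Psenen and Aph1a, parts of the gamma-secretase that frees the intracellular part, and Adam10, which cuts the receptor first, with log2 fold changes of 0.18, 0.26 and 0.26. For each of these 3 genes both HFD arrays were above both CD arrays. Over the 23 tested processing genes this held for 6, and 6 others had both HFD arrays below both CD arrays. These shares were 23.1% and 10.1% over all tested genes. Of the 23, 9 were higher and 14 lower in HFD. In the nucleus, the deacetylase Hdac1 and the coactivator Snw1 had values of 0.18 and 0.23, and Rbpj itself 0.03. Hdac1 and Snw1 also had both HFD arrays above both CD arrays, as 3 of the 10 tested genes of the nuclear complex did, while 1 had both below. Of the other target genes, Hey1 and Heyl kept the order of Hes1 with log2 fold changes of 0.10 and 0.05, while Hes6 did not. Hes6, which opposes Hes1, read 1.77 and 2.11 in CD and 1.69 and 1.499 in HFD, with both HFD arrays below both CD arrays and a log2 fold change of -0.34 ± 0.20 (SE; limma, unadjusted p = 0.160).

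Of 36 other biliary genes, 34 were tested, and Slc10a2, the bile acid carrier of mature ducts, and Vtcn1, an immune checkpoint ligand, were on no array well above background. None was called, the median log2 fold change was 0.07, and 19 were higher and 15 lower in HFD. Both HFD arrays lay above both CD arrays for 7 of the 34 and below both for 3, beside 23.1% and 10.1% of all tested genes. Muc1, a mucin of epithelial surfaces, was the only gene with an unadjusted p under 0.05. Its levels were -3.32 and -3.56 in CD and -4.30 and -4.29 in HFD, both HFD arrays below both CD arrays, and the log2 fold change was -0.85 ± 0.18 (SE; limma, unadjusted p = 0.00621, adjusted p = 1.00), short of 2-fold. The brightest, Cd24a, a surface glycoprotein, Aqp1, a water channel that red cells also carry, and Krt18 had log2 fold changes of 0.23, 0.27 and 0.07. For Cd24a and Aqp1 both HFD arrays were above both CD arrays.

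What the 9 genes shared was the order of the CD arrays, which lay on opposite sides of the split in Y-linked transcripts and Xist. Within CD the array and this split cannot be told apart. The HFD arrays lay on opposite sides of it too, with a median difference, replicate 1 minus replicate 2, of -0.05 on the log2 scale. The part of the split in the order was not tested. CD replicate 1 was above CD replicate 2 for 9 of 9 genes, as it was for 44.5% of all tested genes, and the median difference was 0.76 on the log2 scale beside -0.06 over all genes. By the signed value of this difference, Sox4, Sox9, Krt19, Jag1 and Spp1 exceeded 97.0%, 96.2%, 94.5%, 93.8% and 90.3% of tested genes, and Krt7, the smallest, 70.9%. Genes with a negative difference, however large, count as exceeded in these shares. The sign was the same for all 9 genes under every scaling tried. As no replicate exists of either array, this is a description of these arrays, and the differences between diets ran in opposite directions by array number. HFD replicate 1 was below CD replicate 1 for 9 of 9 genes (39.1% of all genes), with a median HFD minus CD of -0.46. HFD replicate 2 was above CD replicate 2 for 8 of 9 genes (52.7% of all genes), with a median of 0.44, and Krt7 was the exception. The largest of these differences were -0.65 for Sox9 and -0.53 for Krt19 between the replicate 1 arrays, and 1.33 for Spp1 and 0.69 for Jag1 between the replicate 2 arrays. Both signs together held for 8 of 9 genes and for 24.9% of all genes. For 7 of the 9 genes the direction of the diet difference turned with the CD array that was left out. This follows from their order, with the HFD arrays between the CD arrays, which 39.8% of all genes had. The direction did not turn for Spp1 and Krt7. Without CD replicate 1, the log2 fold change was 0.47 for Krt19, 0.55 for Sox4, 0.59 for Jag1 and 0.36 for Sox9. Without CD replicate 2, these genes had -0.51, -0.62, -0.35 and -0.73, short of 2-fold each time.

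**Figure D3:**
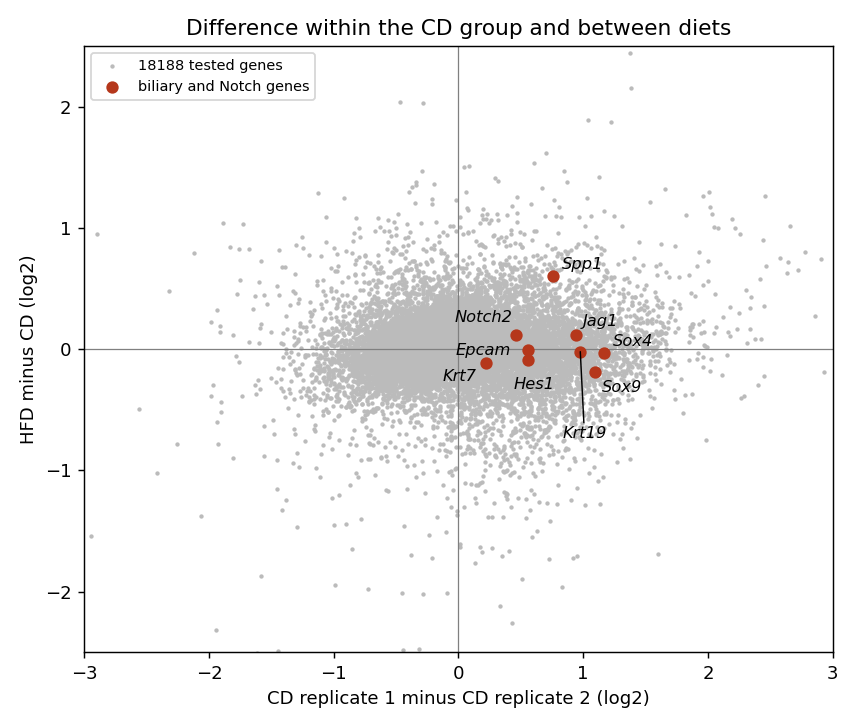
Difference between the CD arrays (x axis, replicate 1 minus replicate 2, log2) against the difference between diets (y axis, HFD minus CD, log2) for 18188 tested genes in grey and the 9 genes in red; 11 genes lie outside the plotted range. All 9 red points lie right of 0 on the x axis, from 0.22 for Krt7 to 1.17 for Sox4, and 8 of them lie within 0.19 of 0 on the y axis, with Spp1 at 0.60.

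The array profile of Krt19 was set against those of 16595 other genes well above background on all arrays, as the Euclidean distance between levels over the 4 arrays after each gene was centred on its mean. The nearest were Hdgfl3 at 0.024, Fscn1, an actin-bundling protein, at 0.031, Tln2, a talin that links integrins to actin, at 0.034, Myo5a, a myosin motor, at 0.040 and the kinase Cdk14 at 0.044. Fscn1, for example, read 1.51 and 0.55 in CD and 1.02 and 1.02 in HFD. None of the 8 other members was among these 5: Jag1 came closest, at rank 309 with a distance of 0.18, then Sox4 at 542 and Sox9 at 618, whereas Krt7 ranked 3450 and Spp1 8176. With 4 arrays many genes share a profile, and the ranks describe these arrays only.

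Markers of other cells that can make these genes moved with the CD arrays too. CD replicate 1 was above CD replicate 2 for 11 of 11 tested stomach, gut and pancreas genes, 10 of 10 neural genes, 6 of 7 kidney and nephric duct genes, 7 of 9 stellate and mesenchyme genes and 4 of 7 mesothelium genes other than Krt19, itself a mesothelium marker. The reverse order was found for 17 of 19 hepatoblast and hepatocyte genes, 9 of 9 erythroid genes and 7 of 8 macrophage genes. Endothelial genes were divided, at 5 of 9. The median difference between the CD arrays was 0.68 for the stomach, gut and pancreas list, 0.65 for the neural, 0.92 for the kidney, 0.67 for the stellate and 0.58 for the mesothelium list, against -0.51 for hepatocyte, -0.49 for erythroid and -0.46 for macrophage genes.

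Summed levels, as intensities divided by the 75th percentile, ran the same way. For the 9 genes the sum was 19.9 and 11.6 in CD and 15.8 and 17.4 in HFD. The stellate and mesenchyme list, led by the collagens Col1a1 and Col3a1, summed to 354 and 189 in CD and 251 and 275 in HFD, and the mesothelium list without Krt19, led by Pdpn, to 9.69 and 5.63 in CD and 10.08 and 8.97 in HFD. The stomach, gut and pancreas list, led by Cpa1, summed to 16.1 and 8.74 in CD and 7.79 and 11.9 in HFD, the kidney list, led by Gata3, to 7.33 and 3.97 in CD and 5.39 and 8.42 in HFD, and the neural list, led by Stmn2, to 29.9 and 18.2 in CD and 16.1 and 20.0 in HFD. Hepatocyte markers summed to 1746 and 2767 in CD and 2130 and 2158 in HFD. Umod of the kidney list and Syna of the trophoblast list were on no array well above background. Every tested gene of the stellate, mesothelium and neural lists was well above background on all arrays. CD replicate 1 thus had larger sums than CD replicate 2 for the mesenchyme, mesothelium, gut, kidney and neural lists and a smaller sum for the hepatocyte list. The HFD arrays lay between for the stellate and hepatocyte sums. Bright genes weigh most in a sum, and some markers went the other way. Reln and Lrat of the stellate list (7 of 9 genes higher on CD replicate 1) were lower on CD replicate 1. So were Upk3b, Gpm6a and Lrrn4 of the mesothelium list without Krt19 (4 of 7 higher). The part of these cells in the levels of the 9 genes was not tested.

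A further 4 lists were divided between the orders, as the mesothelium list was. CD replicate 1 was above CD replicate 2 for 3 of 8 lung and airway genes and 4 of 7 trophoblast genes (median difference -0.32 and 0.62). The same held for 4 of 7 gonad and adrenal genes and 2 of 4 surface epithelium genes (median 0.29 each). Over all genes with a probe, the CD sums were 7.14 and 7.71 for lung and 64.1 and 66.6 for trophoblast. They were 34.9 and 51.9 for gonad and adrenal, and 15.9 and 8.26 for surface epithelium. A further 5 trophoblast genes were left out by the filters on dim and variable probes. For 4 of them, Tpbpa, Tpbpb, Prl3b1 and Psg21, both HFD arrays were below both CD arrays, as for 10.1% of all tested genes. Their log2 differences, -4.00 to -3.80, were not tested, and CD replicate 2 was above CD replicate 1. The genes of these marker lists that passed the rule, which called 0.764% of all genes, were Nkx2-1, Sftpc and Sftpb of the lung, Psg17 of the trophoblast and Tff2 of the stomach list, lower in HFD, and Nr5a1 and Cyp11a1 of the gonad and adrenal list, higher in HFD. None of the 9 biliary and Notch genes passed it.

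**Figure D4:**
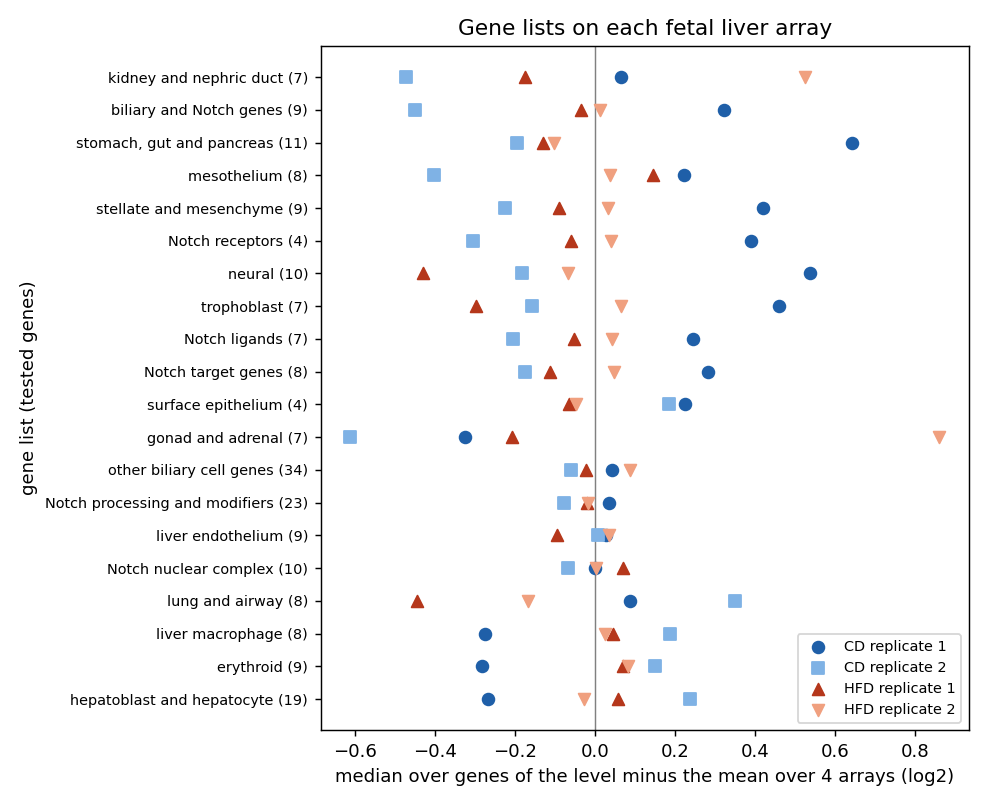
Median over the tested genes of each list (number in brackets) of the level on an array minus the gene's mean over the 4 arrays (log2), with 1 symbol per array. The 9 biliary and Notch genes have CD replicate 1 at 0.32 and CD replicate 2 at -0.45 with the HFD arrays near 0, while hepatocyte, erythroid and macrophage genes have the CD arrays in the opposite order.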

How the data were processed

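Each deposited array file gives, per the file headers, the authors' Agilent Feature Extraction 11.0.1.1 output: an intensity per spot, background-subtracted and detrended but not scaled between arrays, and flags, which the authors' software wrote as scores of 0 or 1. A series table of normalized signal that the authors deposited equals the intensity divided by 1 constant per array, within 0.1% for at least 99.99% of the 41171 probes with 1 spot. Arrays were grouped by their labels. Spots without outlier flags were averaged per probe, log2 was taken and the array's 75th percentile subtracted. As in the study's methods, probes below the 20th percentile of an array (14980) or with a CV over 50% under both conditions (284) were left out, leaving 41332. The CV was taken on the linear scale. HFD and CD were compared with limma 3.58.1 (lmFit, eBayes) in R 4.3.3, with Benjamini-Hochberg adjustment over all tested probes, and no covariate. A gene was read by its brightest probe. Tables were made in Python 3.11.15 with pandas 2.3.3 and numpy 2.4.6, and figures with matplotlib 3.10.9. Probes were named through RefSeq transcripts of GRCm38.p6, which gave 32994 probes a symbol. The number of arrays limits the precision.

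The members and gene lists were chosen with earlier results of these data known. Genes named were all members, the 3 brightest and every called gene of each Notch and biliary list, the Notch receptors, Jag2, Dll1, Dll4, Krt8 and Krt18, leading and called genes of the other lists, and the 5 genes nearest to Krt19. Others named (Rbpj, Muc1, Dll3, untested trophoblast genes) were chosen after their values were seen. The lists had no probe for Muc16 and Prl2c2, and some genes under this rule are not reported here. The replicate numbers were not used as pairs, since the labels give them no shared litter, batch or day, although both replicate 1 arrays carry Y-linked transcripts and both replicate 2 arrays Xist. Alternatives were quantile, median and the deposited scaling, normexp (offset 50, on the median spot brightness), other filters, t-tests, the mean over probes of a gene, a replicate block and leaving out each array. The steps were tested on simulated data.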

Additional observations from a re-analysis of the deposited data

How the results depend on the processing

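No biliary or Notch member passed the rule in any of 16 alternative settings, where the smallest unadjusted p was 0.0153 and the smallest adjusted p 0.223 (limma or the methods' t-tests). Of 108 recomputed member changes with all arrays, the direction turned in 2, both for Epcam, at 0.013 with median scaling and 0.012 with normexp. When arrays were left out, 1 at a time, it turned in 10 of 36: without CD replicate 1 for Krt19, Sox9, Sox4, Epcam and Hes1, without CD replicate 2 for Jag1 and Notch2, without HFD replicate 1 for Krt19 and Epcam, and without HFD replicate 2 for Sox4. The log2 fold change then ran from -0.51 to 0.47 for Krt19, -0.22 to -0.0019 for Krt7, -0.73 to 0.36 for Sox9, -0.62 to 0.55 for Sox4, 0.22 to 0.98 for Spp1, -0.28 to 0.27 for Epcam, -0.35 to 0.59 for Jag1, -0.12 to 0.35 for Notch2 and -0.37 to 0.19 for Hes1.

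Over all probes, 121 were called higher and 197 lower. The counts were 13 and 35 with normexp, 385 and 460 with no filter on dim probes, 71 and 142 with the filter on signal well above background, 41 and 56 with the methods' t-test and 21 and 25 with its Welch correction, and ran from 190 to 843 and from 383 to 466 with an array left out (843 higher without CD replicate 1). The wider Notch and other biliary lists held 0 to 1 called genes each, the 1 without CD replicate 1. The cause was not tested. Deviations of arrays with the same replicate number correlated at -0.0997 over 41332 probes, and the replicate block gave 177 higher and 258 lower with no member called. Where an array was left out, the lone array was assumed to vary like the other group.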
